A study of Mus musculus with 5 samples.

Results

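Integrins and the proteins that gather at their cytoplasmic tails were followed in Cas9-expressing EpH4 cells, a mouse mammary epithelial cell line, after targeting of Mef2d. The set was given by name: 39 genes of integrin subunits, their activators and actin linkers, the ILK-PINCH-parvin complex, adhesion kinases, scaffolds and caveolins. Itga6 and Itgb4, the hemidesmosome integrin, were left out of it. Of the 39 genes, 36 were among the 12934 genes with deposited counts and all 36 passed the expression filter, while Itgb3, Lims2 and Parvb were not analysed here. RNA was compared between cells with a control sgRNA (sgControl, 3 libraries) and cells with an sgRNA against Mef2d (sgMef2d, 2 libraries). Both groups carry Cas9 and were grown in DMEM with serum. Both were obtained by lentiviral transduction and drug selection, and the cells are described as stable clones. Different sgRNAs against Mef2d were used in the study, and the sources used here do not say which one an sgMef2d library carries or whether libraries of a group came from separate cultures. The p-values therefore measure the spread between these libraries, which may be technical.

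Integrins are receptors made of an alpha and a beta subunit. They bind the extracellular matrix outside the cell and, through their short tails, talins and kindlins inside it. Talins and kindlins switch integrins to the binding state, and vinculin, alpha-actinins, filamins and tensins tie them to actin. Focal adhesion kinase and Src pass on signals from these sites, and mammary epithelial cells use integrins to sense the basement membrane, survive and keep their polarity.

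The libraries held between 13601145 and 20498563 counts. On the second principal component of the 500 most variable genes, sgControl replicate 1 (score 12.6) stood apart from sgControl replicates 2 and 3 (-4.09 and -8.43), while the first component separated the groups. The chi-square of the counts divided by its degrees of freedom is near 1 where only counting error acts. It was 2.04 between the sgMef2d libraries and 2.01 between sgControl replicates 2 and 3. Between sgControl replicate 1 and the other sgControl libraries it was 10.6 and 13.7. Between sgControl and sgMef2d libraries it ranged from 11.0 to 13.1. Results are therefore also given without sgControl replicate 1. The p-values of that fit rest on the smaller spread that remains within the groups. Mef2d RNA had 64.3, 76.9 and 71.5 CPM (counts scaled to a common library size with TMM factors) in the sgControl libraries and 64.2 and 65.8 CPM in the sgMef2d libraries. Its log2 fold change of -0.12 did not pass the threshold (adjusted p = 0.400 by edgeR's quasi-likelihood test), so the RNA level does not check the labels. Without sgControl replicate 1 it was -0.19 (adjusted p = 0.00550, with 0.00550 to 0.770 across the alternatives). RNA counts do not show the protein, which the study examined by immunoblot and which was not analysed here. Of 10 markers of mammary epithelium, 9 were analysed, with summed levels of 2695 to 2841 CPM. Of these, Krt18 fell, Cldn4 rose and 7 did not pass the threshold. Of 8 basal and myoepithelial markers, 5 were analysed, with a summed level of 483 to 492 CPM in sgControl and of 950 and 1008 CPM in sgMef2d. Most of that sum was Krt14, at 436 to 443 CPM in sgControl and 875 and 929 CPM in sgMef2d. Of the 5, Krt14 and Trp63 rose, and Acta2 (smooth muscle actin) fell, with 16.9, 19.9 and 19.1 CPM in sgControl and 9.59 and 11.6 CPM in sgMef2d. Krt5 and Krt17 were also higher past the threshold, but both passed the expression filter only through the sgMef2d libraries. Krt5, a basal keratin, was at or below 0.146 CPM in sgControl and at 15.3 and 14.2 CPM in sgMef2d, and Myh11, Cnn1 and Oxtr were not analysed here. Their part in the results below was not tested. Of 8 fibroblast markers, 6 were analysed (643 to 767 CPM in sgControl and 608 and 649 CPM in sgMef2d). Most of that sum was Col1a2, which fell, and Col1a1, which did not pass the threshold, while Col3a1 and Dcn rose, from at most 2.13 CPM in sgControl to between 3.30 and 5.36 CPM in sgMef2d. Of 6 leukocyte markers 1 was analysed, at 2.35 to 3.33 CPM, and of 6 endothelial markers 0 were.

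Itga5 (the fibronectin receptor alpha subunit) and Cav1 (the main coat protein of caveolae) rose in the sgMef2d cells. Itgb7 was also higher past the threshold, but it passed the expression filter only through the sgMef2d libraries. Itga2 (a collagen receptor alpha subunit), Itgb5 and Itgb8 (both partners of the alpha-v subunit), the kindlins Fermt1 and Fermt2, and Actn1 (alpha-actinin-1) fell. The log2 fold changes ran from -1.58 for Itgb8 to 1.52 for Itgb7, and their median absolute value over these 9 genes was 0.47. In the ILK complex, the kinases and the paxillin and zyxin scaffolds, 0 of 13 genes passed the threshold, and 5 of them had an unadjusted p below 0.05 with edgeR, as did 23.2% of all genes tested. Of the 36 genes, 9 (25%) passed an adjusted p of 0.05 with edgeR, 3 higher and 6 lower (8 of 35 genes, 2 of them higher, without Itgb7, which passed the expression filter only through the sgMef2d libraries), as against 7.95% of all 12483 genes tested, 3.67% higher and 4.28% lower. Among the integrin subunits 5 of 10 passed it (4 of 9 without Itgb7), and among the other members 4 of 26. The members were chosen with earlier results of these data known, so these shares cannot test the set against all genes. Without sgControl replicate 1, 22 of the 36 genes (61.1%) passed the threshold, 4 higher and 18 lower, beside 29.4% of all genes. Without sgMef2d replicate 1 the counts were 2 higher and 2 lower, beside 1.88% of all genes, and without sgMef2d replicate 2 they were 2 and 3, beside 1.83%. These 4 and 5 genes are 11.1% and 13.9% of the members. By direction alone, 28 of the 36 genes (77.8%) had a log2 fold change below 0, and 49.3% of all genes tested did. The median log2 fold change was -0.087 over the members and 0.003 over all genes tested. In bulk RNA, fewer cells with a transcript and less of it per cell cannot be told apart.

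**Figure D1:**
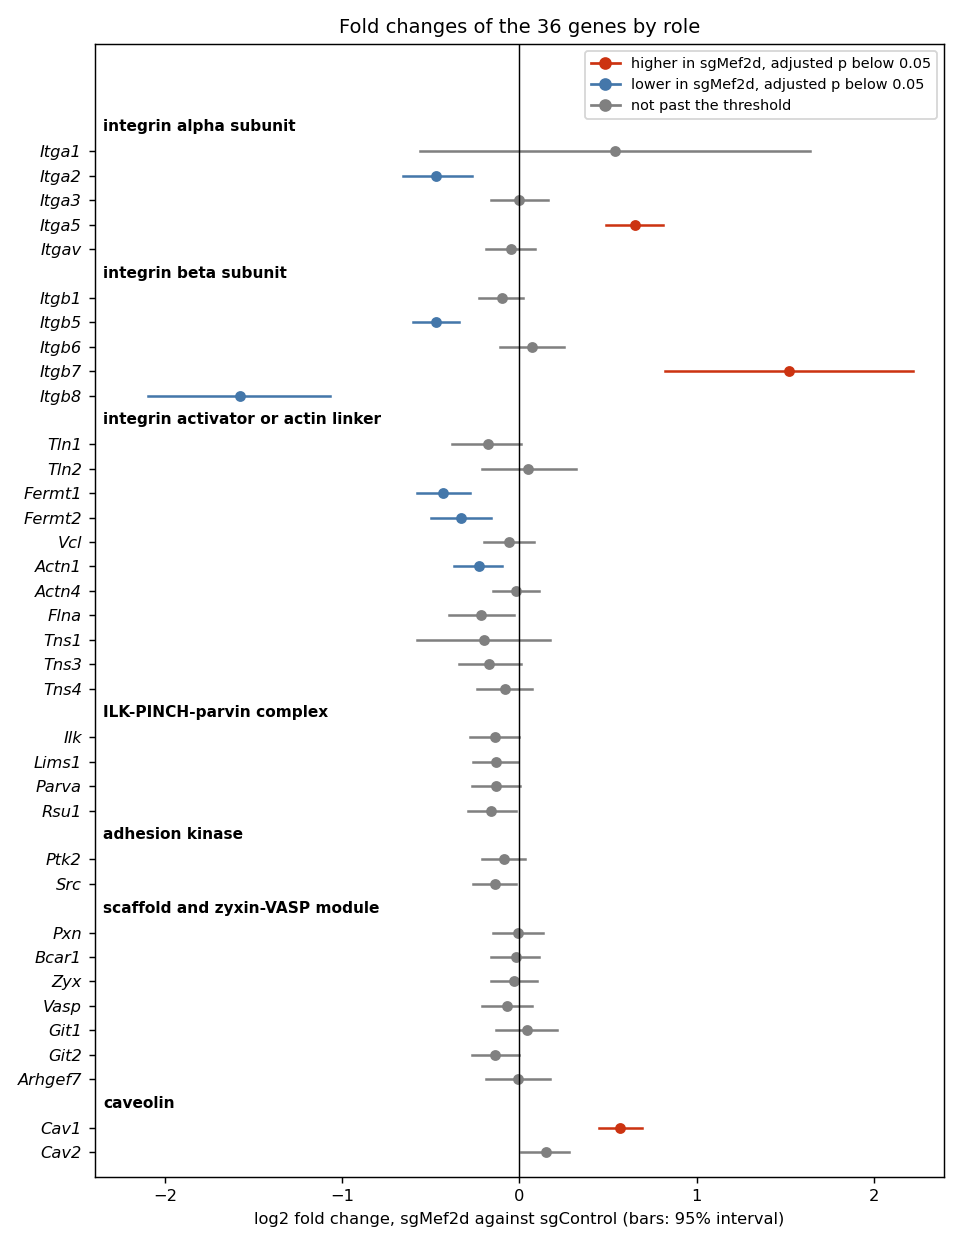
Log2 fold change of the 36 genes, sgMef2d against sgControl, by role, with the 95% interval of the quasi-likelihood fit as bars. Red and blue points are the 3 genes higher and the 6 lower past the threshold, and grey points did not pass it. Of the red genes, Itgb7 passed the expression filter only through the sgMef2d libraries. The red and blue points lie among the integrin subunits, the activators and linkers, and the caveolins.

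Promoter sequence was read for the genes that carry these changes. RefSeq windows of 250 bases before to 50 bases after the start (build GRCm38.p6) existed for 31 of the 36 genes, including all 9 that passed the threshold. The upstream 250 bases are printed for Cav1 and Itga5, the genes with the smallest p among those that rose, for Itgb5, the one with the smallest p among those that fell, and for Fermt2, which holds a serum response factor motif. Capitals mark GC boxes (GGGCGG or its reverse complement) and, in Fermt2, also the CArG box, the first stretch in capitals. All are written 5′ to 3′ on the gene's strand.
Cav1 (chr6:17306085-17306334, plus strand): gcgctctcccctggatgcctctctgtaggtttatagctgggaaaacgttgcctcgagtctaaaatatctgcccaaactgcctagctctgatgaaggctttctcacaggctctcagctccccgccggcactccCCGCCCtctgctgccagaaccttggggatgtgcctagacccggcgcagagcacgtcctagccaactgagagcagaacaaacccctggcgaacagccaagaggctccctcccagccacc
Itga5 (chr15:103366792-103367041, minus strand): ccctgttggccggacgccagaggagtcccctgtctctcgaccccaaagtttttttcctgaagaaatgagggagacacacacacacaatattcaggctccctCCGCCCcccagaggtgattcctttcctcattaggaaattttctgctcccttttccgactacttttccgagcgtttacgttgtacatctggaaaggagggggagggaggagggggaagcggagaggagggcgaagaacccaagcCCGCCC
Itgb5 (chr16:33829415-33829664, plus strand): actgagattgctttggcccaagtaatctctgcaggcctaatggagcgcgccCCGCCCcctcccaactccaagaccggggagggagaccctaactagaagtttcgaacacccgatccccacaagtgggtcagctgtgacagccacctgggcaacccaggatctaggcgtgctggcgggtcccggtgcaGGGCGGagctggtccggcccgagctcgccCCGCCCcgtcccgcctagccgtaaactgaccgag
Fermt2 (chr14:45530066-45530315, minus strand): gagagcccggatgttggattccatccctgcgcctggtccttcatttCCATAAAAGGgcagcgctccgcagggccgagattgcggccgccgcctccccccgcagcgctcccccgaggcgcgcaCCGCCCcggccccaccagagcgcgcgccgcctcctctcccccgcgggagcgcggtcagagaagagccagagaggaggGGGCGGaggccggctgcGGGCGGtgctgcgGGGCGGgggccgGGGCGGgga

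These stretches hold 1, 2, 3 and 5 GC boxes in the order printed, with a GC content of 59.6%, 55.6%, 65.2% and 76.0%. GC boxes on either strand were found in 25 of the 31 genes (80.65%), as against 70.23% of the 9359 genes tested that have a window. The CArG box, the serum response factor motif, was found in 4 of the 31 genes (Fermt2, Itgb6, Rsu1 and Vcl), and in 1.57% of the genes tested. The copy CCATAAAAGG in Fermt2 lies between positions -204 and -195 from the start, counted as +1. In Vcl, whose RNA did not pass the threshold, CCTTATAAGG lies between -227 and -218. The MEF2 consensus was found in 2 of the 31 genes, Bcar1 (-186 to -177) and Lims1 (-78 to -69), neither of which passed the threshold, and in 1.92% of the genes tested. None of the windows of the 9 genes that passed it held the MEF2 consensus, the TEAD motif GGAATG (4 of the 31 genes and 14.5% of the genes tested) or the AP-1 motif TGANTCA (4 of the 31 genes and 6.33%). A gene with several windows counted once if any of them held the motif, and letters that match are not shown to be bound.

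Among the alpha subunits, 1 rose, 1 fell and 3 did not pass the threshold, which 7.95% of all genes tested passed. Itga5 (ENSMUSG00000000555.8, chromosome 15 of GRCm38, 103344286 to 103366763) encodes alpha-5, which pairs with beta-1 to bind fibronectin. It reached 77.1, 87.1 and 87.7 CPM in the sgControl libraries and 125 and 138 CPM in the sgMef2d libraries. Every sgMef2d library lay above every sgControl library. sgControl averaged 84.0 ± 5.97 CPM (SD, n = 3) against 132 ± 9.19 CPM (SD, n = 2) in sgMef2d, a 1.57-fold rise (log2 fold change 0.65, SE 0.074, adjusted p = 4.28e-04 by edgeR's quasi-likelihood test).

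Itga2 (ENSMUSG00000015533.9, chromosome 13, 114833081 to 114932100) encodes alpha-2, which pairs with beta-1 to bind collagen. It reached 41.5, 50.4 and 47.1 CPM in sgControl and 33.5 and 33.4 CPM in sgMef2d. The sgMef2d libraries lay below all sgControl libraries, and sgControl replicate 1 was nearest to them. The log2 fold change was -0.47 (SE 0.090, adjusted p = 0.00899 by the same test). It lost its call without sgMef2d replicate 1 (0.103) or replicate 2 (0.111), with adjusted p between 4.55e-10 and 0.111 across the alternatives. When an sgMef2d library is left out, the remaining one is assumed to vary as the sgControl libraries do.

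Itga3, which encodes the alpha subunit of a laminin receptor, was the most abundant alpha subunit per length, at 132 CPM per kilobase of merged exons in sgControl and 131 in sgMef2d. It had 677, 788 and 789 CPM in sgControl and 732 and 769 CPM in sgMef2d, so the groups overlapped (log2 fold change -0.00091, 95% interval -0.16 to 0.16). Its direction turned under several alternatives. Itgav, the alpha-v subunit shared by receptors for vitronectin and latent TGF-beta, had a log2 fold change of -0.05 (95% interval -0.19 to 0.09), with overlapping groups. Itga1, another collagen receptor subunit, was near the limit of detection, with 14, 11 and 3 counts in sgControl and 18 and 9 in sgMef2d, and its log2 fold change of 0.54 had a 95% interval from -0.56 to 1.64.

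Among the beta subunits, 2 fell and 2 did not pass the threshold, which 7.95% of all genes tested passed. Itgb7 was higher past it, but entered the test only through the sgMef2d libraries. Itgb5 (ENSMUSG00000022817.15, chromosome 16, 33829665 to 33949338) encodes beta-5, which pairs with alpha-v to bind vitronectin. It reached 228, 233 and 244 CPM in sgControl and 168 and 171 CPM in sgMef2d. All sgMef2d values were lower than all sgControl values. sgControl averaged 235 ± 7.99 CPM (SD, n = 3) against 170 ± 2.63 CPM (SD, n = 2) in sgMef2d, with a log2 fold change of -0.47 (SE 0.058, adjusted p = 6.57e-04 by edgeR's quasi-likelihood test).

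Itgb8 (ENSMUSG00000025321.14, chromosome 12, 119158022 to 119238802) encodes beta-8, whose dimer with alpha-v releases active TGF-beta from its latent form. It reached 4.68, 5.60 and 6.74 CPM in sgControl and 1.82 and 1.89 CPM in sgMef2d, or 96, 79 and 92 counts against 31 and 28. The groups were apart. The level fell in sgMef2d (log2 fold change -1.58, SE 0.234, adjusted p = 0.00193 by the same test), the largest decrease among the 36 genes.

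Itgb7 (ENSMUSG00000001281.10, chromosome 15, 102215995 to 102231944) is best known from leukocyte integrins with alpha-4 or alpha-E, and neither of those alpha subunits was analysed here. It had 13, 12 and 8 counts in sgControl and 32 and 31 counts in sgMef2d, or 0.634, 0.851 and 0.586 CPM against 1.88 and 2.09 CPM. The groups were apart at a low level. The expression filter asked for 10 counts at the median library size (0.671 CPM) in 2 libraries, which Itgb7 met only through the sgMef2d libraries, as 1 sgControl library reached it. A gene that enters the test in this way had to be higher in sgMef2d, so its test is no support for a rise among the beta subunits. The log2 fold change was 1.52 (SE 0.318, adjusted p = 0.0141 by the same test). It lost its call without sgMef2d replicate 1 (0.115) or replicate 2 (0.153), with adjusted p between 0.00340 and 0.153 across the alternatives.

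Itgb1, the common partner of alpha-1, alpha-2, alpha-3 and alpha-5, was the most abundant of the 36 genes per length, at 331 CPM per kilobase in sgControl and 308 in sgMef2d. It reached 1322, 1363 and 1372 CPM in sgControl and 1257 and 1261 CPM in sgMef2d. The groups did not overlap, and the log2 fold change was -0.10 (95% interval -0.23 to 0.02, adjusted p = 0.317 by the same test). Without sgControl replicate 1 Itgb1 passed the threshold at a log2 fold change of -0.12 (adjusted p = 0.00296), with adjusted p between 0.00296 and 0.712 across the alternatives. Itgb6, the beta subunit of an epithelial alpha-v integrin, had 25.2 to 27.0 CPM in sgControl and 26.5 and 28.2 CPM in sgMef2d (log2 fold change 0.07, 95% interval -0.11 to 0.25).

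**Figure D2:**
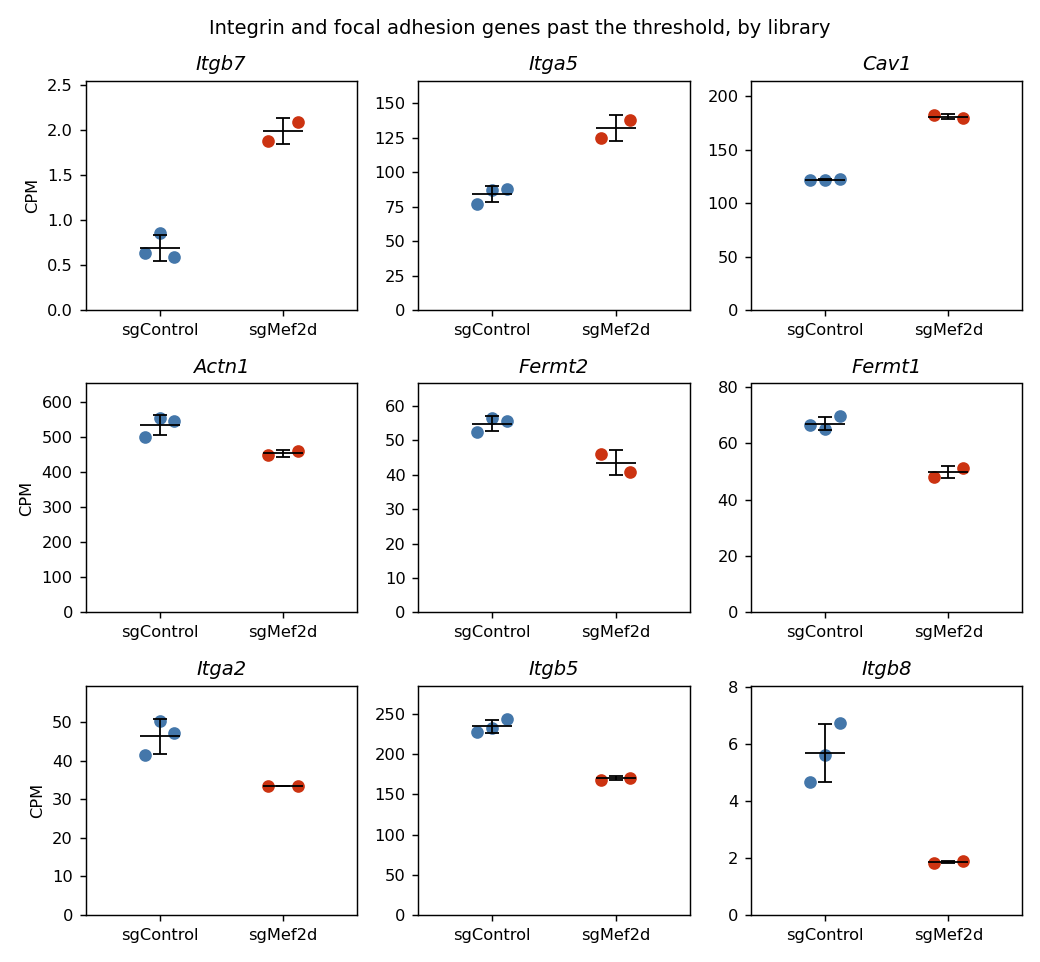
CPM of the 9 genes past the threshold in each library, ordered by log2 fold change, on axes that start at 0. Points are libraries (3 sgControl, 2 sgMef2d) and black lines the mean and SD. In all 9 panels the sgMef2d points lie on one side of the sgControl points, and Itgb7 and Itgb8 lie at a few CPM or less.

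Of the 11 activators and actin linkers, 3 fell (27.3%, beside 4.28% of all genes tested) and 8 did not pass the threshold. Both kindlins, which bind beta tails beside talin, were lower. Fermt1 (kindlin-1, the epithelial form; ENSMUSG00000027356.8, chromosome 2, 132904389 to 132945906) reached 66.3, 65.0 and 69.5 CPM in sgControl and 48.2 and 51.2 CPM in sgMef2d. The groups were apart, with a log2 fold change of -0.43 (SE 0.068, adjusted p = 0.00318 by edgeR's quasi-likelihood test). It lost its call without sgMef2d replicate 1 (0.0872), with adjusted p between 4.22e-09 and 0.0872 across the alternatives.

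Fermt2 (kindlin-2, the widely expressed form; ENSMUSG00000037712.16, chromosome 14, 45458795 to 45530118) reached 52.4, 56.5 and 55.5 CPM in sgControl and 46.0 and 40.9 CPM in sgMef2d. All sgMef2d values were lower. The log2 fold change was -0.33 (SE 0.077, adjusted p = 0.0237 by the same test). It lost its call without sgControl replicate 2 (0.0893), sgMef2d replicate 1 (0.0774) or sgMef2d replicate 2 (0.328), with adjusted p between 4.45e-06 and 0.328 across the alternatives.

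Actn1 (ENSMUSG00000015143.15, chromosome 12, 80167547 to 80260371), whose protein crosslinks actin filaments at adhesions, reached 502, 555 and 545 CPM in sgControl and 448 and 461 CPM in sgMef2d. The log2 fold change was -0.23 (SE 0.062, adjusted p = 0.0422 by the same test), the smallest change of the 9. Its call was lost in more alternatives than that of any of the other 8: without sgControl replicate 2 (0.187) or 3 (0.0998), without sgMef2d replicate 1 (0.335) or 2 (0.281), and with a replicate block (0.0866), with adjusted p between 2.91e-10 and 0.335 across the alternatives. Of its exon bases, 6.56% overlap a gene on the other strand. Its paralog Actn4 had a log2 fold change of -0.02 (95% interval -0.15 to 0.11), with overlapping groups.

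The other linkers did not pass the threshold. Flna (filamin A) was the most abundant of them per length and had 2034, 2361 and 2477 CPM in sgControl and 1981 and 1963 CPM in sgMef2d. Both sgMef2d values lay below those of sgControl, of which replicate 1 was the lowest (log2 fold change -0.22, 95% interval -0.40 to -0.03, adjusted p = 0.141 by the same test). Tln1 (talin-1) had 519, 590 and 660 CPM and 506 and 532 CPM, with overlapping groups (log2 fold change -0.18, 95% interval -0.38 to 0.0069). Without sgControl replicate 1, the log2 fold changes were -0.30 for Flna (adjusted p = 1.28e-12, with adjusted p between 1.28e-12 and 0.559 across the alternatives) and -0.27 for Tln1 (2.81e-09, with 2.81e-09 to 0.638), both past the threshold. The tensins Tns1, Tns3 and Tns4 had log2 fold changes of -0.20, -0.17 and -0.08, all 3 past the threshold without sgControl replicate 1 (-0.41, -0.25 and -0.15, with adjusted p of 3.23e-04, 1.13e-08 and 0.00472 and highest values across the alternatives of 0.916, 0.657 and 0.866). Vcl (vinculin) had a log2 fold change of -0.06 (95% interval -0.20 to 0.08) and passed the threshold without that library as well (adjusted p = 0.0480, range 0.0480 to 0.992). The exons of Vcl share 25.5% of their bases with Ap3m1 on the other strand, and it is not stated whether the counting used strand. Tln2 had a log2 fold change of 0.05 (95% interval -0.21 to 0.32).

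**Figure D3:**
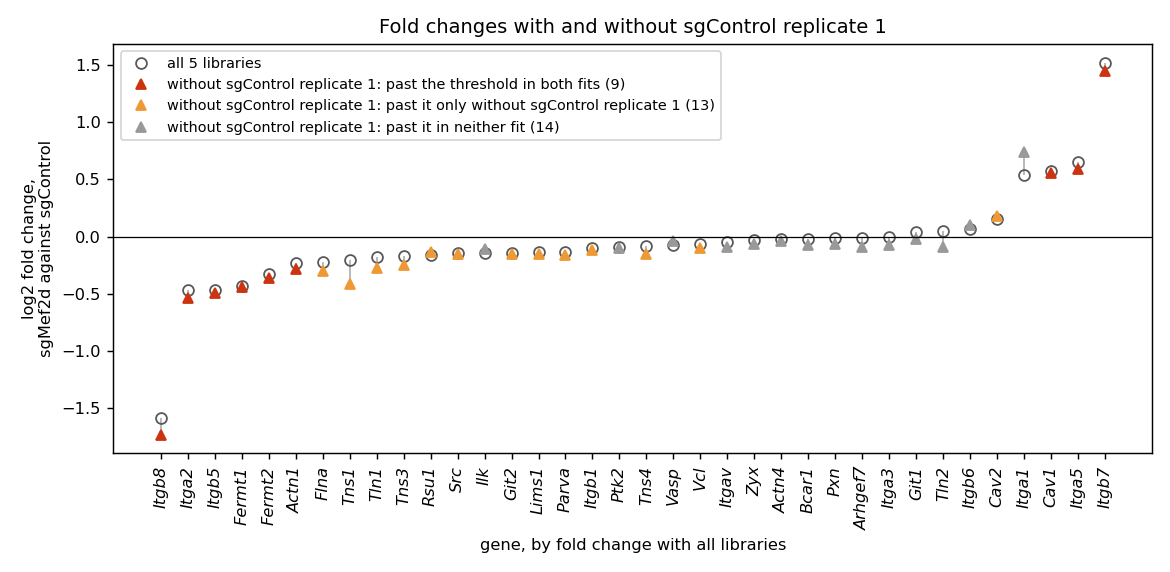
Log2 fold change of the 36 genes, sgMef2d against sgControl, with all 5 libraries (open circles) and without sgControl replicate 1 (triangles). The 9 red triangles passed the threshold in both fits, the 13 orange ones only without sgControl replicate 1 and the 14 grey ones in neither. Tns1 is among the orange genes, moving from -0.20 to -0.41.

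The ILK-PINCH-parvin complex, which docks at beta tails and binds actin, had 4 genes analysed, and 0 of them passed the threshold with edgeR, DESeq2 or limma-voom, while 3 had an unadjusted p below 0.05 with edgeR (23.2% of all genes tested). All 4 had both sgMef2d libraries below the sgControl libraries. Among all 36 genes the groups did not overlap in 19, 4 higher and 15 lower. Of all 12483 genes tested, 41.1% had groups that did not overlap, 2574 genes higher and 2558 lower. Ilk, the scaffold of the complex, had 171, 163 and 152 CPM in sgControl and 145 and 149 CPM in sgMef2d (log2 fold change -0.14, 95% interval -0.28 to -0.003, adjusted p = 0.206 by the same test). Ilk passed the threshold with the length and GC trend removed (-0.20, adjusted p = 0.0335), with adjusted p between 0.0335 and 0.610 across the alternatives. Its value is uncertain, since a single gene on the other strand covers 76.8% of its exon bases, and another gene there also overlaps them. Lims1 (PINCH-1), Parva (alpha-parvin) and Rsu1, a partner of PINCH, had log2 fold changes of -0.13, -0.13 and -0.16. With sgControl replicate 1 left out these 3 genes passed the threshold (adjusted p = 0.00473, 0.00193 and 0.0430), and their highest adjusted p across the alternatives was 0.635, 0.654 and 0.647.

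The adhesion kinases Src and Ptk2 (focal adhesion kinase) did not pass the threshold with edgeR, DESeq2 or limma-voom, and 1 of them, Src, had an unadjusted p below 0.05 with edgeR. Src had 214, 217 and 220 CPM in sgControl and 198 and 196 CPM in sgMef2d, with groups apart (log2 fold change -0.14, 95% interval -0.26 to -0.02, adjusted p = 0.143 by edgeR's quasi-likelihood test). Src passed it without sgControl replicate 1 (0.00206) and with each library's trend in transcript length and GC content removed (0.0208), with adjusted p between 0.00206 and 0.572 across the alternatives. Ptk2 had 154, 156 and 154 CPM and 143 and 147 CPM, a log2 fold change of -0.09 (95% interval -0.21 to 0.03), which turned to 0.0014 with that trend removed. RNA levels do not show the phosphorylation of either kinase.

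Of the 7 scaffolds, 0 passed the threshold with edgeR, DESeq2 or limma-voom and 1, Git2, had an unadjusted p below 0.05 with edgeR, and their median log2 fold change was -0.023. Zyx (zyxin), the most abundant member of this group per length at 79.7 CPM per kilobase in sgControl, had 409, 442 and 437 CPM in sgControl and 412 and 431 CPM in sgMef2d. The groups overlapped (log2 fold change -0.03, 95% interval -0.16 to 0.10). Pxn (paxillin), Bcar1 (p130Cas), Vasp, Git1 and Arhgef7 (beta-PIX) had log2 fold changes between -0.07 and 0.04, with overlapping groups. Git2, an Arf GTPase-activating protein, had -0.14 with groups apart, and it passed the threshold with sgControl replicate 1 left out (adjusted p = 0.0208, with adjusted p between 0.0208 and 0.963 across the alternatives).

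Of the caveolins, membrane proteins that associate with integrins, Cav1 (ENSMUSG00000007655.16, chromosome 6, 17306335 to 17341452) rose and had the smallest p of the 36 genes. It reached 122, 122 and 123 CPM in sgControl and 183 and 180 CPM in sgMef2d. The spread within each group was small beside the distance between the groups. sgControl averaged 122 ± 0.665 CPM (SD, n = 3) against 181 ± 2.38 CPM (SD, n = 2) in sgMef2d, a 1.48-fold rise (log2 fold change 0.57, SE 0.055, adjusted p = 1.18e-04 by edgeR's quasi-likelihood test). The neighbouring Cav2, whose protein forms oligomers with caveolin-1, had 201, 188 and 194 CPM in sgControl and 224 and 207 CPM in sgMef2d (log2 fold change 0.15, 95% interval 0.01 to 0.28, adjusted p = 0.170 by the same test). Cav2 passed the threshold without sgControl replicate 1 (4.99e-04) and with the length and GC trend removed (0.0466), with adjusted p between 4.99e-04 and 0.727 across the alternatives.

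Levels per length in sgControl ran from Itgb1, at 331 CPM per kilobase, down to Itga1, at 0.0302. Flna followed Itgb1 at 244 CPM per kilobase, then Itga3 at 132 and Actn1 at 96.5. Of the beta subunits, Itgb5 was next to Itgb1, at 66.1 CPM per kilobase in sgControl and 47.7 in sgMef2d, then Itgb6 at 3.66 and 3.85. Itga5 rose from 17.0 to 26.7 CPM per kilobase. Itgb7 and Itgb8 were among the lowest in both groups, at 0.249 and 0.513 CPM per kilobase in sgControl and 0.717 and 0.168 in sgMef2d.

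**Figure D4:**
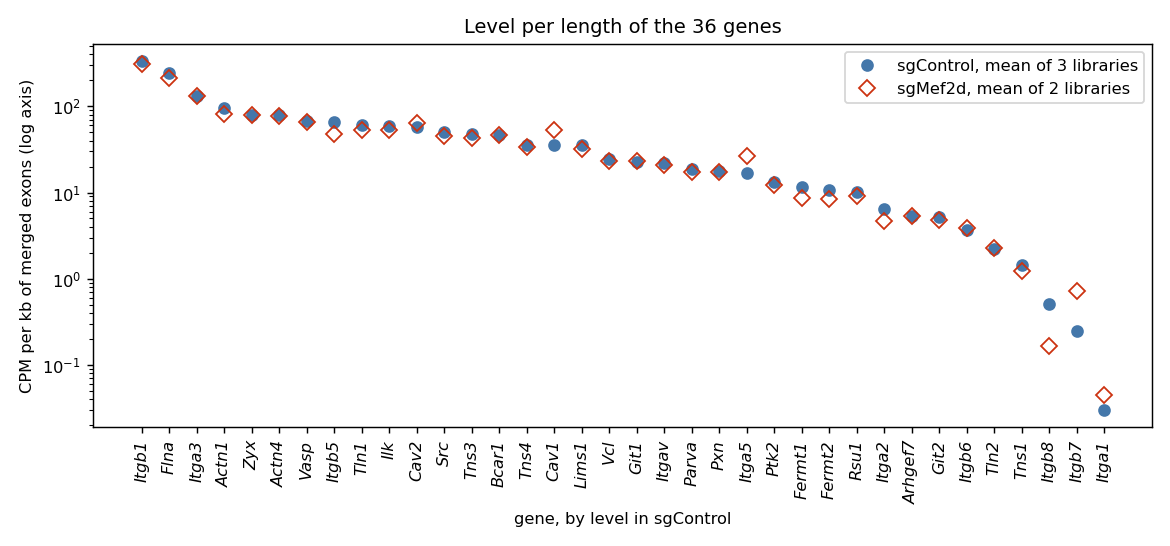
Mean CPM per kilobase of merged exons of the 36 genes, on a log axis, ordered by the sgControl level. Filled circles are the mean of 3 sgControl libraries and open diamonds of 2 sgMef2d libraries. Most pairs of symbols overlap, and Itgb7 and Itgb8 are among the 3 lowest genes.

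Other genes of the pathway were read from 5 lists of 115 genes, of which 92 were tested. The lists were also chosen with earlier results of these data known, so their shares cannot test them against all genes. Past the threshold, 4 of the 92 genes rose and 11 fell (16.3% in all, beside 7.95% of all genes tested). Without sgControl replicate 1 the counts were 9 and 33, beside 29.4% of all genes. They were 1 and 4 without sgMef2d replicate 1, 0 and 3 without sgMef2d replicate 2, and 3 and 7 without sgControl replicate 2, settings in which 1.88%, 1.83% and 4.84% of all genes passed. With all libraries, 5 of 18 matrix ligands passed it, 1 higher and 4 lower. Postn (periostin) fell, with 778 ± 5.11 CPM (SD, n = 3) in sgControl against 481 ± 5.85 CPM (SD, n = 2) in sgMef2d, and Col1a2, a collagen I chain, fell by 0.54 on the log2 scale (adjusted p = 2.32e-04). Fn1 (fibronectin), which the product of Itga5 binds, had 5921, 8946 and 9938 CPM in sgControl and 6284 and 6453 CPM in sgMef2d, with overlapping groups and sgControl replicate 1 the lowest. Fn1 is named for this pairing, after its values were seen.

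Of the other integrin subunits, Itgb4 rose, with 70.5, 87.6 and 87.7 CPM in sgControl and 115 and 120 CPM in sgMef2d (log2 fold change 0.52, adjusted p = 0.00438 by edgeR's quasi-likelihood test), and the other 5 tested did not pass the threshold. Itgb4 lost its call without sgMef2d replicate 1 (0.0543) or 2 (0.0834), with adjusted p between 7.77e-12 and 0.0834 across the alternatives. Of 11 membrane partners, Sdc1 (syndecan-1) rose by 0.38 on the log2 scale (adjusted p = 0.00177, and 0.0738 without sgMef2d replicate 2, the highest value across the alternatives). Of 36 other adaptors and LIM domain proteins, 1 rose and 6 fell, led by Pdlim5 (-0.52, adjusted p = 4.64e-04) and Nedd9 (-0.38, adjusted p = 0.00571), a relative of Bcar1. Nedd9 lost its call without sgMef2d replicate 1 (0.0712) or 2 (0.119), with adjusted p between 5.39e-10 and 0.119 across the alternatives. Of 21 other kinases, phosphatases and GTPases, 1 passed the threshold, lower in sgMef2d, and its call was lost without sgMef2d replicate 1 or 2. Beside 7.95% of all genes tested, 16.7% of the other integrin subunits and 9.09% of the membrane partners passed the threshold. The share was 19.4% for the adaptors and LIM domain proteins and 4.76% for the kinases, phosphatases and GTPases.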

How the data were processed

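RNA-seq of 5 libraries was used. Per the labels and the paper's methods, poly(A) RNA was made into strand-marked libraries, and the authors aligned the reads to GRCm38 with STAR2 (the submitters' processing notes also name CASAVA and Subread) and deposited raw counts per gene. Every gene listed reached 11 counts in a library, so genes with lower counts were not analysed here. Whether counting used strand is not given in the sources used here. Without their versions all 12934 identifiers matched GENCODE M21 (12811 also with them), which gave symbols, positions and merged exon lengths. 

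From the deposited counts, TMM factors (0.996 to 1.00) and CPM were computed, and the current (not the legacy) quasi-likelihood test was run, with edgeR 4.0.16 in R 4.3.3 on the 12483 genes that passed its expression filter (34 of the 36 members through either group, Itga1 only through sgControl and Itgb7 only through sgMef2d), by condition and with no block. Benjamini-Hochberg adjustment ran over all genes tested, with a threshold of 0.05, and the members, Mef2d, the marker lists and the genes named from the other adhesion lists are reported. Standard errors and 95% intervals come from the same fit, with a biological coefficient of variation of 0.0607. A count of 3 equals 0.146 to 0.220 CPM, and intervals cover counting and replicate error as fitted. The steps were tested on simulated counts. The members and lists were chosen with earlier results of these data known, and genes named from the other lists are those with the 2 smallest p past the threshold of each list, 1 of which is not reported here. Per-library values are given for all members past the threshold and for the most abundant other member per length of each role. They are also given for Tln1 and Ptk2, as counts for Itga1 and in part for Itgb6, which that rule does not select. Alternatives were RLE and upper quartile normalization, the legacy test, DESeq2 1.42.0, limma-voom (limma 3.58.1), no filter, a filter of 1 CPM in 2 libraries, a threshold of 0.01, a correction for length and GC content within each library (loess, span 0.3), a replicate block, and the omission of single libraries. For Mef2d and the other adhesion genes these were added after seeing the data.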

Additional observations from a re-analysis of the deposited data

How the results depend on the processing

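Over the alternatives with a test, the 9 genes past the threshold kept their direction in every one. For Itgb7, which passed the filter only through sgMef2d, this direction is no support for a rise. Cav1, Itga5, Itgb5 and Itgb8 kept their call in all 14 alternatives. Itga2, Itgb7, Fermt1, Fermt2 and Actn1 lost it in 1 to 5 alternatives. The count of members lower past the threshold was 6 with all libraries and ranged from 2 to 18 when single libraries were left out, 18 without sgControl replicate 1 (the 6 among them) and 2 and 3 without sgMef2d replicates 1 and 2. Over all genes 992 were called with all libraries, 3639 without sgControl replicate 1, and 238 and 234 without sgMef2d replicates 1 and 2. The count of members higher ranged from 2 to 4. At an adjusted p below 0.01 the counts were 2 higher and 4 lower, and with the length and GC trend removed 4 and 8, Ilk, Src and Cav2 being gained, with 1236 of all genes called. Same-numbered libraries are not stated to be paired, and the correlations of their deviations from the group means were 0.011 and -9.16e-04. A replicate block gave 3 higher and 5 lower members, Actn1 being lost, with 1254 of all genes called. The direction of genes with small fold changes turned: under the block for Itga3 (0.04), Pxn (0.0073), Bcar1 (0.0083) and Arhgef7 (0.03), with the length and GC trend removed for Itgav (0.05), Vcl (0.0017), Ptk2 (0.0014), Pxn (0.0038), Git1 (-0.0073) and Arhgef7 (0.08), and for Itga3 with upper quartile normalization (0.0062) and limma-voom (0.0025). When single libraries were left out, the log2 fold change ranged from -0.07 to 0.04 for Itga3, -0.06 to 0.02 for Pxn, -0.09 to 0.04 for Arhgef7, -0.07 to 0.0072 for Bcar1, -0.09 to 0.13 for Tln2, -0.05 to 0.12 for Git1, -0.06 to 0.009 for Actn4 and -0.06 to 0.0015 for Zyx. The share of members below 0 ranged from 66.7% to 83.3% over the settings. The cause of these shifts was not tested. With 1 CPM in 2 libraries required, Itga1 was not tested. Depth limits Itga1 and Itgb7, which have under 20 counts in at least 1 library, and 2 sgMef2d libraries limit every comparison.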
